A study of Sus scrofa with 12 samples.

Results

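The genes described here are splicing factors and RNA-binding proteins of 6 named families, measured in porcine aortic valvular interstitial cells, the resident fibroblast-like cell type of valve leaflets. They were chosen by gene symbol and by a minimum signal. A probe set had to carry 1 symbol beginning with SRSF, SFRS, SF3A, SF3B, SNRP, HNRNP, HNRP, PRPF, U2AF or DDX and a digit. It also needed a log2 value over 4 on 3 or more of the 12 arrays, which the arrays of 1 group could supply. The symbol rule matched 116 probe sets, and 111 of them, for 75 of 77 genes, passed the filter, out of 17638 probe sets tested in all. The 5 that did not pass stood for PRPF38B, PRPF39, SRSF10, U2AF2 and DDX4, and the highest of their values on any array was 3.97, for U2AF2. PRPF38B, PRPF39 and SRSF10 remained through other probe sets, so U2AF2, the large subunit of the factor that binds the polypyrimidine tract, and DDX4, a germ cell helicase, were the 2 genes lost.

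Introns are removed by the spliceosome, which is built on each transcript from small nuclear ribonucleoproteins. The U1 particle marks the start of an intron, the U2 particle with its SF3A and SF3B proteins and the U2AF dimer mark its end, and PRPF proteins bring in and rearrange the U4/U6.U5 particle, while a ring of Sm proteins forms the core of most of these particles. SR proteins and hnRNPs bind the transcript itself and often push the choice of splice sites in opposite directions, and DDX proteins are helicases that remodel RNA in splicing, ribosome assembly, export, decay and antiviral sensing.

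The 4 groups each held 3 arrays, described as biological replicates in the labels, which name no animals. All cells were released with collagenase II from aortic valves of adult pigs. P0 cells were freshly isolated, not cultured and not treated. P2 cells had been passaged 2 times and kept on plastic plates in medium with 1% fetal bovine serum. They were untreated or given porcine TGF-β1, a cytokine that turns fibroblasts into matrix-producing myofibroblasts, at 5 ng/ml for 8 h or for 24 h, and all P2 cells were collected on day 3. The comparison of untreated P2 with P0 cells therefore joins plastic culture, passage, serum and the time since digestion, which cannot be told apart. The 8 h and 24 h comparisons share the same 3 untreated arrays, which also enter the culture comparison.

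Arrays of the same group correlated at 0.982 to 0.994, and each array had 16564 to 17247 probe sets above log2 4. Of 10 measured markers of fibroblasts and valvular interstitial cells, each had a mean over the control level of 4.58, the 95th percentile of the 64 reporter control probe sets, in every group. The 11 measured macrophage and monocyte markers had summed linear levels of 12800 to 19500 in P0, 1290 to 2810 in untreated P2, 1140 to 2590 at 8 h and 1100 to 2030 at 24 h. Fewer cells of a type and less RNA per cell cannot be told apart in such bulk samples. In the P2 arrays numbered 3 the mean log2 value of 13 endothelial markers was 5.74 untreated, 5.75 at 8 h and 5.51 at 24 h, the lowest of each group, whose highest were 7.59, 7.37 and 7.01. P2 arrays with the same replicate number deviated from their group means together. The replicate number was therefore also fitted as a term on the 9 P2 arrays, and results of that fit are named as such.

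Most measured genes of the Sm core, of the U1, U2 and SF3 proteins and of the DDX helicases were higher in cultured cells than in fresh ones, while SRSF5 and 4 of 6 SRSF6 probe sets were more than 2-fold lower. Against P0, untreated P2 cells had 54 of the 111 probe sets higher and 16 lower at an adjusted p under 0.05 (limma, Benjamini-Hochberg over all probe sets tested). The share called was 63.1%, against 59.4% of all probe sets tested, so the total was near the background. By direction, 48.6% of the members were called up against 33.6% of all probe sets, and 14.4% were called down against 25.8%. Among the 8466 tested probe sets with 1 gene symbol, 38.8% were called up and 23.9% down. The median log2 fold change of the members was 0.30, against 0.07 over all probe sets and 0.16 over those with 1 symbol. Counted by gene, on the probe set with the highest mean, 38 of 75 genes rose, 8 fell and 29 were not called. The members were brighter than the background. Their mean log2 values had a median of 9.44, against 7.21 for all tested probe sets and 7.85 for those with 1 symbol. With a filter at log2 6, 52 of 102 member probe sets were called up and 16 down. In all, 5429 of 12830 probe sets were then called up and 3598 down. The part of signal level in these shares was not tested.

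**Figure D1:**
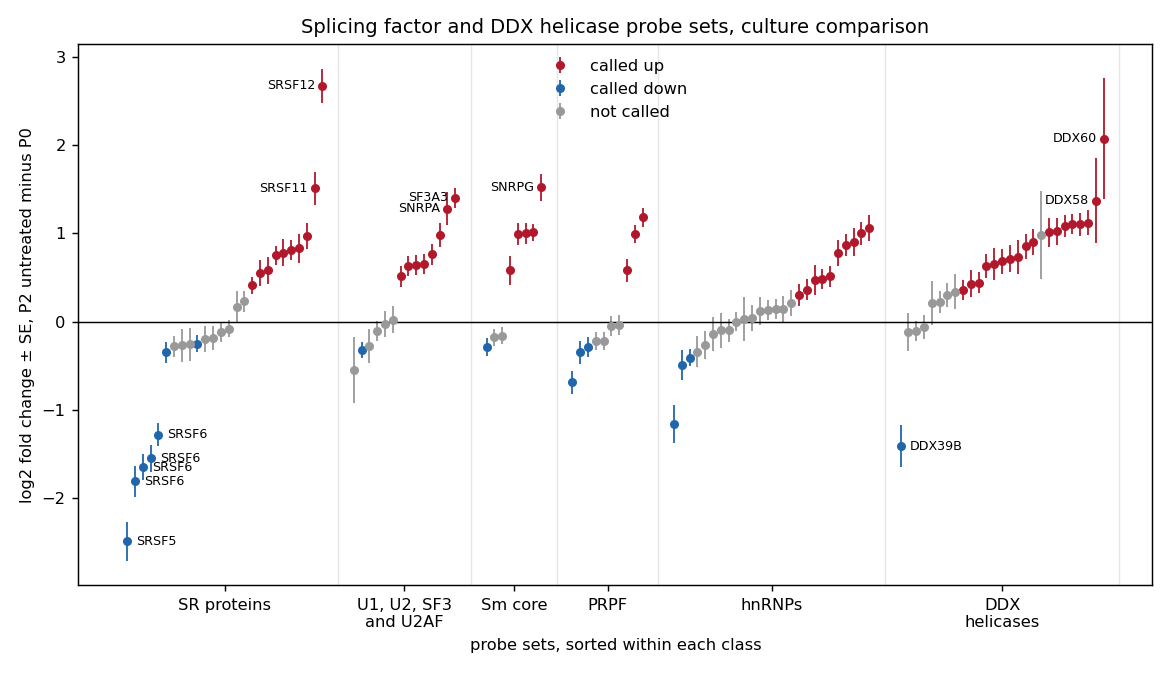
Log2 fold change with its standard error of each of the 111 member probe sets, untreated P2 minus P0 (3 arrays each), sorted within 6 classes and coloured by the limma call. SR proteins reach from -2.49 to 2.67, while 18 of 27 DDX probe sets and 5 of 8 Sm core probe sets lie among those called up.

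The SR proteins, which bind exonic enhancers through an RNA recognition motif and recruit the splicing machinery through an arginine-serine domain, held both the largest rise and the largest fall. Of their 26 probe sets 10 rose and 7 fell, and of 11 genes 5 rose, 3 fell and 3 were not called. The shares of probe sets called, 38.5% up and 26.9% down, were near those of all probe sets with 1 gene symbol. These shares count some genes repeatedly: SRSF6 gave 2 rises and 4 falls, SRSF11 1 rise and 2 falls, and SRSF1 3 rises. The largest rise among all members was that of SRSF12, a regulator related to SR proteins that can counteract them. Its log2 values were 4.75, 4.39 and 5.24 in P0 and 7.57, 7.58 and 7.24 in untreated P2. The groups lay far apart, with array 2 of P0 under the control level of 4.58 and array 1 just over it. The log2 fold change was 2.67 ± 0.20 (SE, adjusted p = 2.74e-07, limma), a size that rests on P0 values near the control level. The largest fall was that of SRSF5, an SR protein that binds exonic enhancers. It had values of 12.01, 11.93 and 11.65 in P0 and of 9.43, 9.51 and 9.18 in untreated P2. No P2 array came near a P0 array, and SRSF5 fell by 2.49 ± 0.22 on the log2 scale, to a level 5.61-fold lower (adjusted p = 1.25e-06).

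SRSF1, SRSF2 and SRSF3 rose by less. SRSF1, the prototype of the family and a proto-oncogene, was measured by 3 probe sets that rose by 0.97, 0.83 and 0.81. On the brightest of them the P0 arrays stood at 10.31, 10.19 and 10.12 and the untreated P2 arrays at 10.98, 11.26 and 11.27, without overlap. SRSF2, which stays in the nucleus and is mutated in some blood cancers, rose from 11.24, 11.21 and 11.32 to 12.19, 11.93 and 11.91. SRSF3, the smallest SR protein, which also serves export and 3′ end formation, rose from 11.77, 11.54 and 11.66 to 12.28, 12.57 and 12.46. The log2 fold changes were 0.75 ± 0.11 for SRSF2 and 0.78 ± 0.15 for SRSF3 (limma adjusted p = 8.68e-05 and 0.000785). SRSF9 rose by 0.41 on 1 of 2 probe sets. SRSF7, which also serves mRNA export, stood at 12.30, 12.01 and 12.09 in P0 and at 12.10, 11.99 and 11.97 in untreated P2, and the overlapping groups gave a change of -0.12 that was not called. SRSF4 at -0.20 and the 4 probe sets of SRSF10, at -0.27 to 0.23, were not called.

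**Figure D2:**
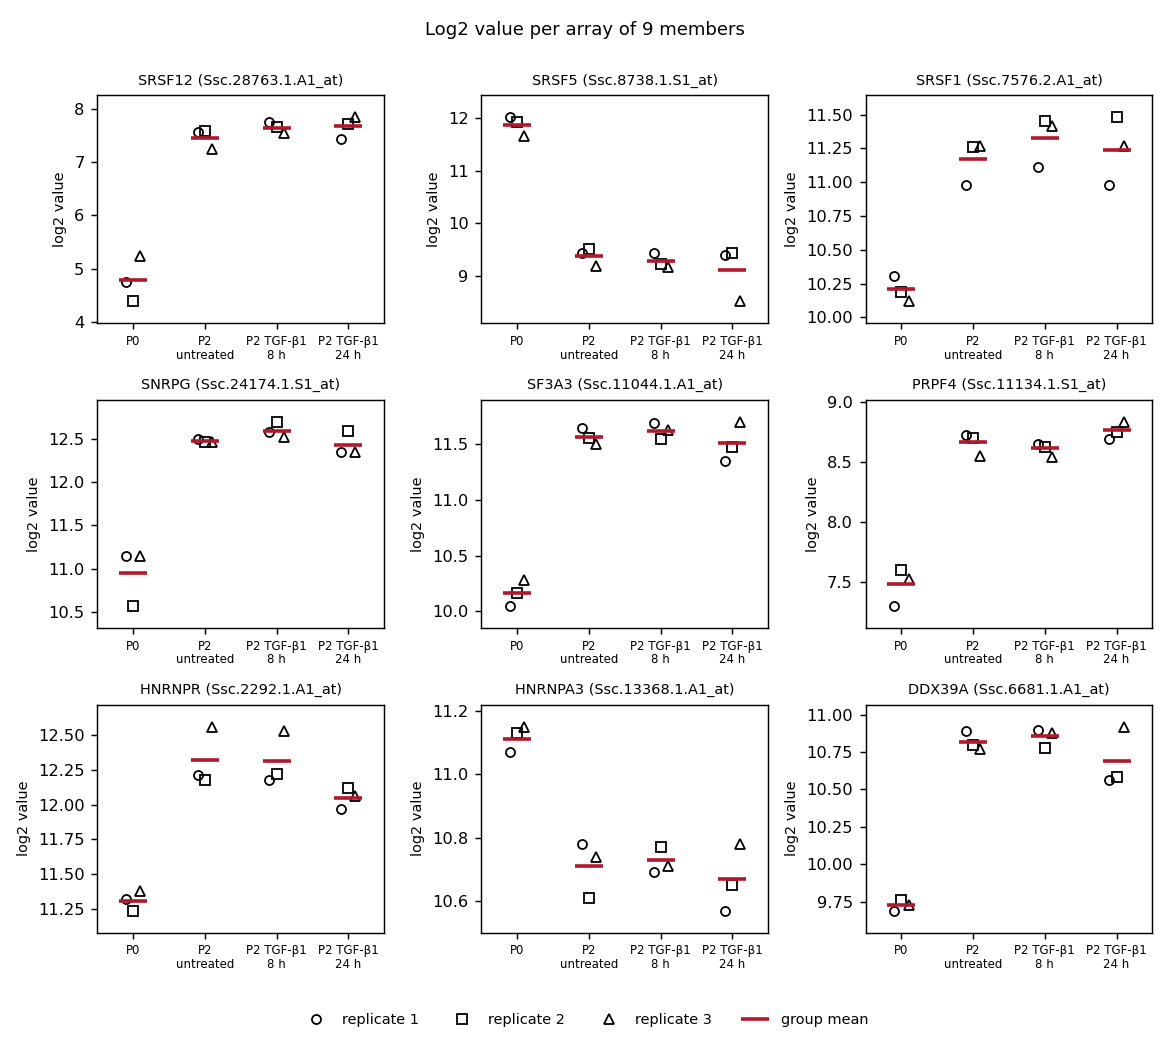
Log2 value of 9 members on each of the 12 arrays, with open symbols for replicates 1 to 3 and red bars for group means; each panel has its own vertical scale. SRSF12, SRSF1, SNRPG, SF3A3, PRPF4, HNRNPR and DDX39A are higher on every untreated P2 array than on every P0 array, and SRSF5 and HNRNPA3 are lower.

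SRSF6, an SR protein known for autoregulation through its own alternative exon, was measured by 6 probe sets, lettered A to F here, that moved in opposite directions. On probe set D, the brightest, the log2 values were 11.64, 11.81 and 11.72 in P0 and 10.65, 10.40 and 10.30 in untreated P2, a fall of 1.28 ± 0.13. Probe set A fell by 1.81, B fell by 1.65 and C fell by 1.55. On these 4 probe sets every P0 array lay above every P2 array. The other two rose: probe set E went from 8.94, 9.12 and 8.71 to 9.48, 9.73 and 9.21, by 0.55 ± 0.15, and F went from 8.47, 8.60 and 8.25 to 8.88, 9.36 and 8.82, by 0.58 ± 0.16 (limma adjusted p = 0.00626 and 0.00644). All 6 calls remained whichever array of the compared groups was left out. The probe sequences were not used here, so which transcripts of SRSF6 each probe set reads is not known from these data.

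**Figure D3:**
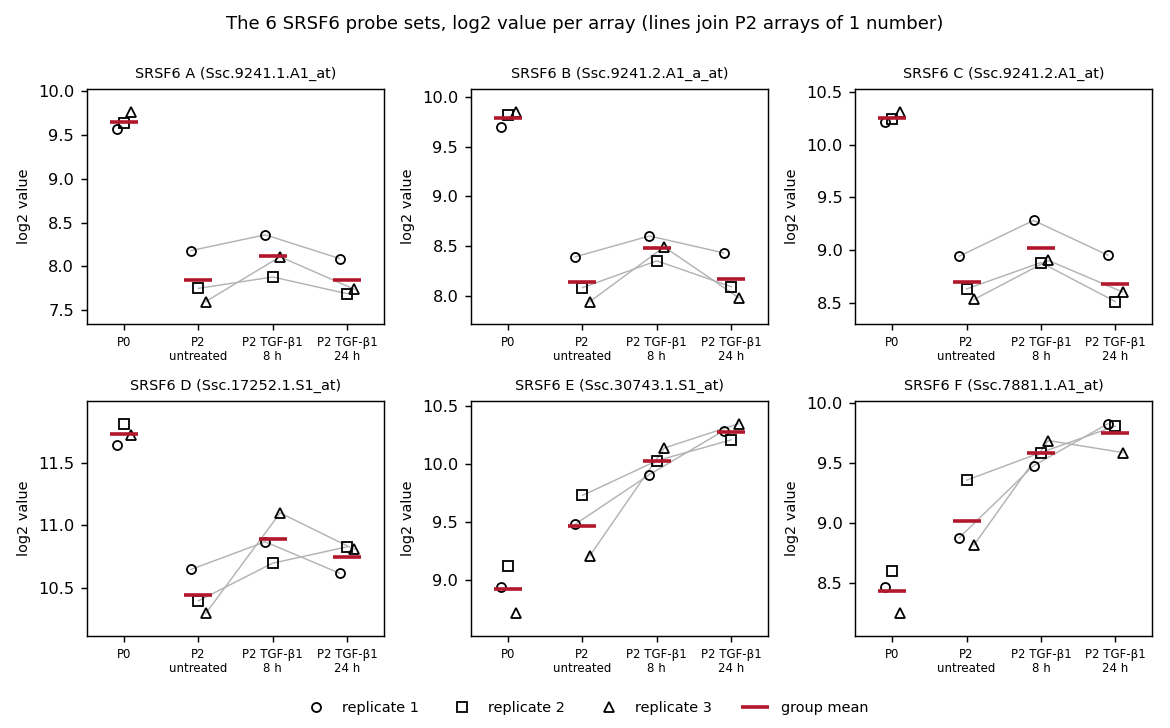
Log2 value of the 6 SRSF6 probe sets, A to F, on each array, with grey lines joining the P2 arrays of 1 replicate number and red bars for group means; each panel has its own scale. The first 4 panels drop from P0 to untreated P2, and the last 2 rise from P0 to untreated P2 and again to 24 h of TGF-β1.

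SRSF11, which takes part in recognition of the intron's end, was the other gene with opposite calls. Of its 5 probe sets the brightest fell by 0.35, from 11.68, 11.62 and 11.48 to 11.11, 11.30 and 11.31, and another fell by 0.25. Both calls were lost in some fits with 1 array left out, with adjusted p up to 0.0811 and 0.124. The dimmest rose from 3.80, 3.87 and 3.69 to 5.03, 5.19 and 5.67. Since the P0 values lay under the control level this was a rise of at least 1.64-fold. All P0 values were also under log2 4, so this probe set passed the filter only through P2 arrays. Its rise, counted among those of the members, and the opposite calls of SRSF11 therefore follow in part from the selection. The last 2 probe sets, at -0.28 and -0.08, were not called.

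Transcripts for proteins of the U1 and U2 particles and of SF3 and U2AF rose on 8 of 14 probe sets, and 1 fell. U2AF was represented only by its relative U2AF1L4. The shares were 57.1% up and 7.14% down, against 38.8% and 23.9% of all probe sets with 1 gene symbol. SF3A3, the SF3A subunit that helps U2 engage the branch site, had values of 10.05, 10.17 and 10.28 in P0 and 11.65, 11.56 and 11.50 in untreated P2. Its P2 arrays all lay above the P0 arrays, with a log2 fold change of 1.40 ± 0.12 (limma adjusted p = 7.66e-07). SNRPA, the U1 protein that binds a stem-loop of U1 RNA, rose by 1.28 ± 0.18, from 8.40, 8.32 and 8.49 to 9.60, 9.56 and 9.91. SNRPB2, its counterpart in U2, rose by 0.98 ± 0.14, from 9.34, 8.92 and 9.10 to 9.98, 10.15 and 10.16. The U1 protein SNRPC rose by 0.65, the U2 protein SNRPA1 by 0.63, and the SF3B subunits SF3B2, SF3B4 and SF3B5 by 0.76, 0.64 and 0.51.

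Not every part of the SF3 complexes followed. SF3B1, the large SF3B subunit that clamps the branch site and is mutated in some blood cancers, stood at 11.94, 11.91 and 11.94 in P0 and at 11.61, 11.57 and 11.65 in untreated P2. The groups did not overlap, and SF3B1 fell by 0.32 ± 0.09 (limma adjusted p = 0.00924), although its dimmer probe set, at -0.28, was not called. SF3A1 at -0.03, the branch-site protein SF3B6 at -0.11 and the U2AF relative U2AF1L4 at 0.02 were not called.

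All Sm core genes measured rose except SNRPN. The Sm proteins form the ring around the small nuclear RNAs, and 5 of their 6 genes rose, on 5 of 8 probe sets. The shares of probe sets called were 62.5% up and 12.5% down, against 38.8% and 23.9% of all with 1 gene symbol. On its brighter probe set SNRPG had values of 11.15, 10.57 and 11.14 in P0 and of 12.50, 12.46 and 12.46 in untreated P2, a rise of 1.52 ± 0.15 (limma adjusted p = 3.69e-06). The untreated P2 arrays lay within a narrow band above all P0 arrays, although the dimmer SNRPG probe set, at -0.16, was not called. SNRPB rose by 1.01 ± 0.10, from 10.06, 9.88 and 10 to 11.04, 10.99 and 10.95. SNRPD3 rose by 1.00 ± 0.12, from 11.37, 11.05 and 11.22 to 12.10, 12.30 and 12.23. SNRPF rose by 0.99 and SNRPD1 by 0.58. SNRPN, an imprinted relative of SNRPB known mainly from neurons, stood on its brighter probe set at 10.45, 10.24 and 10.35 in P0 and at 10.24, 10.14 and 10.13 in untreated P2. That difference of -0.18 was not called. Its other probe set fell by 0.29, a call that was lost in 3 fits with 1 array left out (adjusted p up to 0.0794).

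The PRPF proteins divided evenly, with 3 of 10 probe sets up and 3 down. PRPF4, a U4/U6 protein of the tri-snRNP, rose by 1.18 ± 0.11 (limma adjusted p = 1.88e-06), from 7.30, 7.60 and 7.52 to 8.72, 8.70 and 8.55. PRPF4B, a kinase that phosphorylates tri-snRNP proteins, rose by 0.99 ± 0.10, from 8.31, 8.52 and 8.47 to 9.42, 9.47 and 9.38. PRPF31, which also holds the tri-snRNP together, rose by 0.58. In both PRPF4 and PRPF4B the untreated P2 arrays stood clear of the P0 arrays. PRPF38B fell on both of its probe sets, from 7.51, 7.40 and 7.51 to 7.03, 6.73 and 6.57 on the brighter one, where it fell by 0.69 ± 0.13. Its other probe set fell by 0.35. PRPF38A, which joins the spliceosome before activation, fell by 0.29, from 10.20, 10.01 and 10.29 to 10.01, 9.90 and 9.72, with the lowest P0 and the highest P2 array equal after rounding. The calls of these smaller falls were lost in several fits with 1 array left out, with adjusted p up to 0.131 and 0.146. The ubiquitin ligase PRPF19 at -0.22, PRPF39 at -0.22, PRPF3 at -0.05 and the second-step factor PRPF18 at -0.04 were not called.

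The hnRNPs, abundant proteins that coat nascent transcripts, showed a mixed pattern. Of 26 probe sets 10 rose, 3 fell and 13 were not called, and by gene 4 of 17 rose and 2 fell. The share called up, 38.5%, was near the 38.8% of all probe sets with 1 gene symbol, and 11.5% were called down against 23.9%. The rises counted HNRNPR, HNRNPK and HNRNPA2B1 on 2 probe sets each. HNRNPAB, a nucleic-acid-binding shuttling protein, rose by 1.06 ± 0.15, from 10.83, 10.77 and 11.24 to 12.01, 12.12 and 11.89. HNRNPR rose on both probe sets, by 1.00 ± 0.13 and 0.90 ± 0.16, and on the brighter one it went from 11.32, 11.24 and 11.38 to 12.21, 12.18 and 12.56. Neither gene's groups overlapped. HNRNPA1, which counteracts SRSF1 at many splice sites, rose by 0.48 ± 0.11, from 11.70, 11.87 and 12 to 12.31, 12.36 and 12.36 (limma adjusted p = 0.00272).

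Several well-known hnRNPs gave no call, a fragile one, or calls on only some of their probe sets. HNRNPC, which binds uridine tracts, was at 0.00 on its brighter probe set, with values of 11.68, 11.62 and 11.70 against 11.65, 11.63 and 11.70. HNRNPA2B1 stood at 13.69, 13.48 and 13.45 in P0 and at 13.43, 13.70 and 13.85 in untreated P2 on its brightest probe set, overlapping values that differed by 0.12. It rose by 0.78 and 0.30 on the others, of which the smaller rise lost its call in 5 of 6 fits with 1 array left out. HNRNPD, a binder of AU-rich elements, went from 12.17, 12 and 11.93 to 12, 12.30 and 12.22 on the brighter probe set, also overlapping, with a difference of 0.14 that was not called, and rose by 0.51 on the other. HNRNPK, a binder of cytosine-rich RNA, rose by 0.36 and 0.47, on the brighter probe set from 12.55, 12.64 and 12.68 to 13.08, 12.99 and 12.89. No P2 array overlapped a P0 array there, but both calls were lost with each array centred on its median (adjusted p = 0.0881 and 0.103) and in some fits with 1 array left out. HNRNPU, a scaffold-attachment protein, stood at 5.35, 5.36 and 5.40 in P0 and at 5.13, 5.10 and 5.59 in untreated P2, and the overlapping groups differed by -0.10. It and HNRNPM at 0.13, HNRNPF at -0.10, HNRNPL at 0.03, HNRNPH1 at -0.34 and HNRNPH2 at 0.14 and 0.04 were not called. HNRNPUL1 was at 0.21 on its brighter probe set and not called, and on the dimmer one, whose P0 values lay under the control level, it rose at least 1.27-fold.

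HNRNPA3 and HNRNPH3 were the 2 hnRNP genes that fell. HNRNPA3 went from 11.07, 11.13 and 11.15 to 10.78, 10.61 and 10.74 and fell by 0.41 ± 0.10 (limma adjusted p = 0.00357). HNRNPH3 went from 11.44, 11.38 and 11.30 to 10.75, 10.77 and 11.11 and fell by 0.49 ± 0.17, a call that was lost in 4 fits with 1 array left out (adjusted p up to 0.0808). HNRNPDL, a relative of HNRNPD, fell by 1.16 ± 0.22 on its dimmer probe set, from 9.93, 10.13 and 10.36 to 9.39, 8.84 and 8.72, while its brighter probe set, at -0.14, was not called.

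The DDX helicases rose in 18 of 27 probe sets and 13 of 20 genes, with a median log2 fold change of 0.68. The shares of probe sets called were 66.7% up and 3.70% down, against 38.8% and 23.9% of all with 1 gene symbol. Many of the DDX helicases are not splicing factors. DDX19A, a helicase of mRNA export at the nuclear pore, rose by 1.12 ± 0.14, from 6.79, 6.98 and 6.98 to 7.94, 8.03 and 8.15. DDX39A, an export helicase close to DDX39B, rose by 1.10 on both probe sets, and on the brighter one it went from 9.69, 9.76 and 9.73 to 10.89, 10.80 and 10.77 (limma adjusted p = 4.89e-06). DDX1, part of the tRNA ligase complex, rose by 1.08 and 1.01, and DDX46, which acts with U2 in branch-site selection, rose by 0.68 and 0.63. Among other helicases DDX55 rose by 0.90, DDX47 by 0.85, DDX49 by 0.73 and 0.43, DDX56 by 0.71 and 0.65, DDX27 by 0.44 and DDX21, a nucleolar helicase, by 0.36. Its relative DDX50 rose by 1.02. The rise of DDX21, from 10.38, 10.44 and 10.49 to 10.88, 10.90 and 10.61, lost its call with 1 array left out (adjusted p up to 0.0699) or with centred arrays (0.063), and the smaller DDX49 rise lost its call in 4 fits with 1 array left out.

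DDX39B, a helicase of early spliceosome assembly and export, was the only DDX gene with a fall, on the dimmer of its 2 probe sets. There the values went from 5.65, 6.44 and 5.33 to 4.45, 4.31 and 4.43, and since the latter lay under the control level this was a fall of at least 2.33-fold. The brighter probe set, at -0.06, was not called, with values of 9.76, 9.33 and 9.37 against 9.50, 9.56 and 9.21. DDX6, which acts in mRNA decay, at -0.11, DDX20, a partner of the SMN complex, at 0.30, DDX51 at 0.22 and DDX54 at -0.12 were not called either, nor were DDX11 at 0.34 and DDX25 at 0.21, both near the control level.

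Agreement between probe sets of 1 gene was partial. Of 25 genes with several probe sets, 9 had all of them called the same way, 2 had opposite calls, 11 had some called and others not, and 3 had none called. Without the P2 arrays numbered 3, which were low in endothelial markers, 53 member probe sets were called up and 13 down in culture, a setting added after the data were seen.

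Other splicing genes were listed separately, with earlier results of these data known. Of 62 listed symbols of the spliceosome and exon junction outside the 6 families, 38 were measured. Of these 38 genes 29 rose and 2 fell, with a median of 0.55. Over all tested probe sets with 1 gene symbol, 38.8% were called up and 23.9% down. That background counts every probe set, while the listed genes were counted on their brightest probe set only, so the units differ. LSM2 and LSM6, parts of the ring on U6 RNA, rose by 1.47 and 1.27, and the spliceosome activator PLRG1 rose by 1.28. SMNDC1, a relative of SMN, fell by 1.29, and BCAS2 fell by 0.56. Of 59 listed symbols of splicing regulators 32 were measured, of which 15 rose and 9 fell, a split nearer to that background. The CLK kinases, which phosphorylate SR proteins, differed among themselves. CLK1 fell by 2.38, from 11.56, 11.24 and 11.47 to 8.71, 8.96 and 9.46, and CLK4 fell by 2.10. CLK2 rose by 0.81 and CLK3, at 0.22, was not called. The SR-like proteins TRA2B and TRA2A fell by 0.92 and fell by 0.83, and MBNL3, TAF15 and SYNCRIP rose by 1.42, 1.26 and 1.18.

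Other gene groups moved in the same comparison. The cell cycle list had 19 of 20 measured genes up (median 3.38), and the list of immediate-early and heat shock genes had 19 of 19 down (median -2.91). Of 11 macrophage and monocyte markers 10 fell, with a median of -2.42, while of 13 endothelial markers 2 fell and of 10 fibroblast markers 1 rose and 6 fell. Their part in the changes of the splicing factors was not tested.

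TGF-β1 for 8 h moved few of these genes. Against untreated P2 cells, 2 member probe sets rose and 0 fell (limma), which is 1.80% against 5.07% of all probe sets tested, and 19 had an unadjusted p under 0.05. Over all probe sets 2.53% were called up and 2.53% down. The median log2 fold change was 0.10 over the members and -0.01 over all probe sets. With replicate number as a term on the 9 P2 arrays, 9 rose and 3 fell, or 10.8% against 12.5% of all. By direction, that fit called 8.11% of the members up against 5.70% of all probe sets, and 2.70% down against 6.77%. After 24 h, 4 rose and 0 fell, or 3.60% against 8.49%, and 15 had an unadjusted p under 0.05. Over all probe sets 4.27% were called up and 4.22% down. With replicate number as a term 6 rose and 5 fell, or 9.91% against 20.0%, with 5.41% up against 9.77% and 4.50% down against 10.2%. In these 4 fits the share called in both directions together was below that over all probe sets, though only slightly at 8 h with the replicate term. There the share called up was above that over all probe sets, but its 9 rises counted SRSF6 and SRSF10 more than once.

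**Figure D4:**
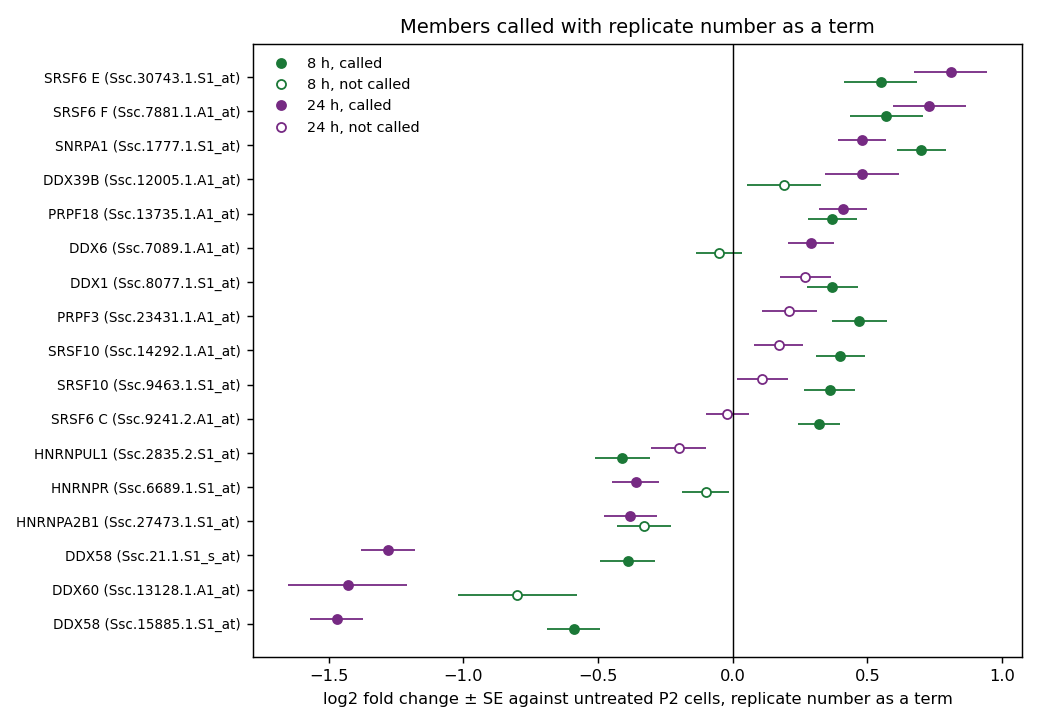
Log2 fold change with its standard error at 8 h (green) and 24 h (purple) of TGF-β1 against the same untreated P2 arrays, for each member probe set called at either time with replicate number as a term; filled points were called. SRSF6 probe set E reaches 0.81 at 24 h, and the DDX58 and DDX60 probe sets lie between -1.28 and -1.47 at 24 h.

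SNRPA1, the U2 protein that pairs with SNRPB2, was called at both times. Its log2 values were 9.35, 9.12 and 9.25 in P0, 9.90, 9.88 and 9.83 in untreated P2, 10.64, 10.42 and 10.66 at 8 h and 10.29, 10.28 and 10.45 at 24 h. The treated arrays lay above the untreated ones at both times. The rise was 0.70 ± 0.11 at 8 h and 0.48 ± 0.11 at 24 h (limma adjusted p = 0.00521 and 0.0191). Without the P2 arrays numbered 3 the adjusted p were 0.0591 and 0.147, and the 24 h call was also lost without untreated array 1 or 3 or 24 h array 3 (adjusted p up to 0.0713). The dimmer SNRPA1 probe set, at 0.34 and 0.32, was not called. Its partner SNRPB2, at 0.17 and 0.12, was not called either.

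Among PRPF proteins, PRPF3 of the U4/U6 particle rose at 8 h by 0.47 ± 0.12, from 8.28, 8.19 and 8.23 to 8.71, 8.55 and 8.85 (limma adjusted p = 0.0387), and at 24 h it was at 0.21 and not called. PRPF18 rose at 24 h by 0.41 ± 0.11, from 9.21, 9.26 and 9.31 to 9.74, 9.53 and 9.77 (adjusted p = 0.0444). At 8 h PRPF18 stood at 9.59, 9.51 and 9.82, a change of 0.37 that was called with replicate number as a term (adjusted p = 0.0357). The treated arrays of both genes lay above the untreated ones in the comparisons that were called. Both calls were lost in 5 fits each with 1 array left out, with adjusted p up to 0.147 for PRPF3 and 0.128 for PRPF18.

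The SRSF6 probe sets E and F, which had risen in culture, were the SR protein probe sets called with TGF-β1. Probe set E stood at 9.48, 9.73 and 9.21 in untreated P2, at 9.91, 10.03 and 10.14 after 8 h and at 10.29, 10.21 and 10.35 after 24 h. Probe set F stood at 8.88, 9.36 and 8.82, then at 9.48, 9.59 and 9.69, and at 9.83, 9.81 and 9.59. On both, every treated array exceeded every untreated one. At 24 h they rose by 0.81 ± 0.15 and 0.73 ± 0.16 (limma adjusted p = 0.00592 and 0.0138), and at 8 h changes of 0.55 and 0.57 missed the threshold (adjusted p = 0.0512 and 0.0605) but were called with replicate number as a term (0.0382 and 0.0346). Without the P2 arrays numbered 3, the 24 h adjusted p were 0.0621 and 0.0686, and F also lost its call without untreated array 1 or 3 or 24 h array 1. The 4 SRSF6 probe sets that had fallen in culture were at 0.27 to 0.44 after 8 h and at -0.02 to 0.30 after 24 h and were not called, except that C rose by 0.32 at 8 h with replicate number as a term (adjusted p = 0.0378).

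The fit with replicate number added small changes in other members. At 8 h SRSF10, a splicing repressor when dephosphorylated, rose by 0.40 and 0.36 on 2 of its 4 probe sets, DDX1 rose by 0.37 on 1 of 2, and HNRNPUL1 fell on its dimmer probe set, to a mean under the control level. At 24 h HNRNPA2B1 fell by 0.38 and HNRNPR fell by 0.36 on 1 probe set each, DDX6 rose by 0.29, and DDX39B rose on its dimmer probe set, from a mean under the control level. The adjusted p of these ran from 0.0269 to 0.0497. SRSF5 and SRSF12, which had moved furthest in culture, were at -0.25 and 0.20 at 24 h and were not called.

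DDX58, the RNA helicase RIG-I that senses viral RNA, and DDX60, an interferon-induced helicase, gave the largest changes with TGF-β1, which depended on how the replicate number was treated. On its brighter probe set DDX58 stood at 7.69, 8.33 and 8.09 in P0, at 9.84, 8.47 and 9.92 in untreated P2, at 9.06, 7.90 and 9.50 after 8 h and at 8.16, 7.13 and 8.51 after 24 h. Array 2 was the lowest in each P2 group, and within each replicate number the value dropped from untreated to 8 h and again to 24 h. The 24 h change of -1.47 ± 0.48 was not called without the replicate term (limma adjusted p = 0.0841) and was called with it (-1.47 ± 0.10, adjusted p = 0.000213). The dimmer DDX58 probe set changed by -1.28 with adjusted p = 0.143 and 0.000371 in the same fits. At 8 h both were called only with the replicate term, at -0.59 and -0.39 (adjusted p = 0.0108 and 0.0466).

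DDX60 stood at 4.63, 4.26 and 4.55 in P0, at 6.76, 5.45 and 7.44 in untreated P2, at 6.25, 4.09 and 6.92 after 8 h and at 5.10, 4.22 and 6.03 after 24 h. Array 2 was again the lowest of each P2 group, and it lay under the control level in both treated groups. The 24 h change was -1.43, with adjusted p = 0.245 without and 0.00478 with the replicate term. In the culture comparison DDX60 rose at least 3.90-fold (limma adjusted p = 0.0207) and DDX58 rose by 1.37 ± 0.48 (adjusted p = 0.027). Both calls were lost in several fits with 1 array left out, with adjusted p up to 0.0827 for DDX60 and 0.0958 for DDX58, and the dimmer DDX58 probe set, at 0.98, was not called. Of 16 measured interferon-response genes, 2 fell at 8 h and 3 at 24 h, and 8 and 13 fell with the replicate term. In culture 2 of them rose and 5 fell. ISG15, a ubiquitin-like interferon product, stood at 13.38, 12.34 and 13.88 in untreated P2 and at 12.98, 11.27 and 13.26 after 24 h, also with array 2 lowest. The part of the interferon response in the DDX58 and DDX60 values was not tested.

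**Figure D5:**
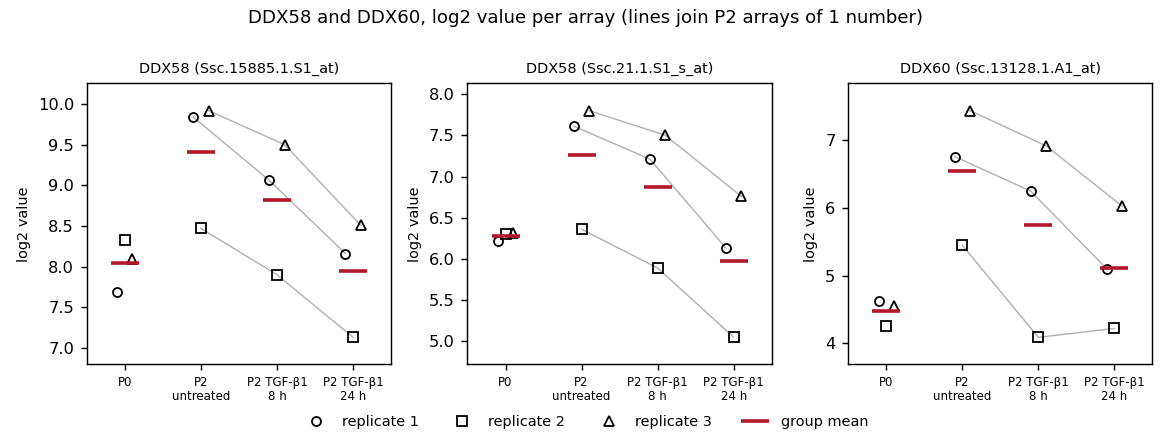
Log2 value of the 2 DDX58 probe sets and the DDX60 probe set on each array, with grey lines joining the P2 arrays of 1 replicate number and red bars for group means; each panel has its own scale. Array 2 is the lowest in each P2 group, and DDX58 drops from untreated to 8 h to 24 h within each number.

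Between 8 h and 24 h of treatment, 0 member probe sets were called in either direction (limma), against 0.232% of all probe sets tested, and 2 members had an unadjusted p under 0.05. With replicate number as a term 2 fell, or 1.80% against 2.44% of all. These were both DDX58 probe sets, which fell by 0.89 ± 0.10 and fell by 0.88 ± 0.10 (adjusted p = 0.00988 and 0.0109). Of the other gene lists, the 38 further spliceosome genes had 0 calls at either time without the replicate term, and among the 32 other splicing regulators RBFOX2, a regulator of tissue-specific exons, fell by 0.43 at 8 h. With the replicate term 1 of the spliceosome genes rose at 8 h, and 3 of the regulators fell at 8 h and 1 at 24 h. Of 20 cell cycle genes 4 fell at 24 h, and 15 fell with the replicate term. Their part in the values of the members was not tested.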

How the data were processed

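The data are 12 Affymetrix porcine arrays. Each deposited value is the log2 expression of 1 probe set on 1 array, made by the authors with GCRMA, per the submitters' processing notes, which name no version or settings. They were used as deposited, and array medians ran from 5.87 to 5.94. The 64 reporter controls entered no test. Testing was limited to the 17638 of 23999 probe sets that exceeded log2 4 on 3 or more arrays. Gene symbols are those of the platform annotation, and all 111 member probe sets matched the RefSeq symbol of their gene ID. A further 3 probe sets that matched in part but carried several symbols were left out. Where a group mean lay under the 95th percentile of the reporter controls (log2 4.58), folds are lower bounds computed against that value.

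A model with 1 mean for each of 4 groups was fitted by limma 3.58.1 (R 4.3.3), with lmFit and eBayes, over the 12 arrays together. Tests were two-sided with Benjamini-Hochberg adjustment over all probe sets tested, and calls needed an adjusted p under 0.05. Errors are standard errors from limma, with 3 arrays per group, and the number of arrays limits the precision. The p-values set each difference against the spread between arrays within groups. In the fit of group means that spread includes differences between replicate numbers. The fit of group means was tested on simulated data with independent noise on each array. The fit with replicate number as a term was not tested in this way.

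Replicate numbers recur in each group. After removal of group means, the 9 pairs of same-numbered P2 arrays had correlations of 0.348 to 0.679 and the differently numbered ones none above 0.0796, while P0 arrays correlated with same-numbered P2 arrays at -0.0916 to 0.0158. The numbers were therefore taken to pair the P2 arrays, as a reading of the data and not of the labels. A fit with replicate number as a term on the 9 P2 arrays was run beside the fit of group means.

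Array values are given for the 8 largest called rises and falls of each comparison whose groups did not overlap, the 3 called genes with the largest change in each family, a panel of well-known members, and genes with opposite calls. The panel genes U2AF1, U2AF2, SNRNP70, PRPF8, DDX3X, DDX3Y, DDX5 and DDX17 were not among the members. Counts by gene use the probe set with the highest mean. The members, families, panel and other lists were chosen with earlier results of these data known. Alternatives were no filter, a filter at log2 6, quantile normalisation, centring, a floor at the control level, the replicate block, a trended robust prior, a fit of the compared groups only, 1 probe set per gene and leaving out each array.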

Additional observations from a re-analysis of the deposited data

Results flagged for a closer look

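DDX51, a helicase of ribosome assembly, lay above the untreated array of its number at 8 h and below it at 24 h for each replicate number; the difference was tested and missed the threshold. At 8 h its log2 value exceeded that of the untreated array of the same number by 0.09, 0.09 and 0.11, a mean of 0.10, and at 24 h it differed by -0.10, -0.22 and -0.09, a mean of -0.14. Neither change was called by limma (adjusted p = 0.785 and 0.577). The difference between the times was not called either, with or without the replicate term.

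DDX58 differed between 24 h and 8 h of TGF-β1 by -0.89 on its brighter probe set and by -0.88 on its dimmer one, tested by limma with replicate number as a term (adjusted p = 0.00988 and 0.0109). Without that term neither difference was called.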

How the results depend on the processing

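With 3 arrays in each group small changes are poorly resolved, and for group means under the reporter control level only a bound on the fold is given. No called member changed direction in any setting run. Of 70 member probe sets called in culture, 57 kept their call in each of 6 fits with 1 array left out and 61 in each other setting. In the culture comparison, 54 up and 16 down became 38 and 8 with 1 probe set per gene, and leaving out an array gave 48 to 52 up and 11 to 15 down (all probe sets 5427 to 5640 and 4150 to 4279). At 8 h, the 2 member rises became 4 with a filter at log2 6, with centred arrays or with a trended robust prior, 1 with only the compared groups fitted, 0 without the P2 arrays numbered 3 (a setting chosen after seeing the data), and 1 to 3 without 1 array, with 0 to 0 falls. The replicate block gave 5 rises and 1 fall on 12 arrays and 9 and 3 on 9 arrays. At 24 h, the 4 rises became 1 with the compared groups only, 0 without the arrays numbered 3, 2 with 1 probe set per gene and 1 to 4 without 1 array. The 0 falls became 1 with quantile normalisation, 4 and 5 with the replicate block on 12 and 9 arrays, and 0 to 1 without 1 array. Between the times the block on 9 arrays gave 2 falls, and leaving out an array gave 0 to 0 calls in either direction. In culture the replicate block on 12 arrays gave 54 up and 17 down. The calls that the block on 9 arrays changed are those given with the results, and it changed no other call of a member.

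Over all probe sets, 447 up and 447 down at 8 h became 264 and 255 with the compared groups only, 1006 and 1194 with the block on 9 arrays, 116 and 149 without the arrays numbered 3, and 178 to 352 and 186 to 350 without 1 array. At 24 h, 754 and 744 became 306 and 325, 1723 and 1796, 314 and 448, and 394 to 672 and 406 to 721 in the same order, and the block on 12 arrays gave 1128 down. Between the times, 25 up and 16 down became 15 and 10 without a filter, 12 up with a floor, 48 and 61 with the block on 12 arrays, 39 and 33 with a trended prior, 0 and 0 with the compared groups only, 198 and 232 with the block on 9 arrays, 3 and 9 without the arrays numbered 3, and 2 to 30 and 2 to 15 without 1 array. Centring gave 23 up and 28 down there, so the share up went from 61% to 45.1%. Fits on fewer arrays have fewer samples, and the cause of the other shifts was not tested.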
